A study of Danio rerio with 39 samples.

Results

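The effect of continuous gamma irradiation at low dose rates was measured on 15 of the 39 libraries of zebrafish embryos analysed here. The libraries were chosen by the dose rate and batch in their labels, with earlier results of these data known. The exposed side held 7 libraries, 3 irradiated at 0.005 mGy/h in irradiation batch I14 and 4 irradiated at 0.05 mGy/h in batch I13. The reference was the 8 non-exposed libraries of the same batches, 4 in I14 and 4 in I13. One effect of exposure, shared by both dose rates, was fitted with the batch as a covariate. All embryos were wild type, of the AB strain. Exposed embryos were irradiated from early cleavage until the shield stage, at the start of gastrulation, with gamma rays of caesium sources. Controls were not exposed, and where they were kept meanwhile is not given in the sources used here. Each library came from the RNA of a pool of whole embryos, with eggs of several spawns mixed before exposure, so that differences between single embryos are averaged out. Each low dose rate was run in 1 batch only, so that dose rate and batch cannot be told apart between I14 and I13. Within a batch, exposed and control pools were compared directly.

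Gamma rays break DNA and form reactive oxygen species in water. In vertebrate cells, DNA breaks are sensed by checkpoint kinases, and the response that follows raises genes such as cdkn1a, an inhibitor of the cell cycle, and mdm2, a ubiquitin ligase that limits the response. The shield stage embryo is made of fast dividing blastoderm cells that have only recently started their own transcription. It is covered by the enveloping layer and sits on the yolk syncytial layer, and its shield is the fish counterpart of the organizer. Transcripts laid down by the mother are still present at this stage.

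The libraries held between 20682702 and 57169053 counts of read pairs on genes, with a median of 31468808. No library was a copy of another: in each of the 21 pairs within a group the counts differed beyond sampling noise (chi-square over its degrees of freedom of at least 6.87). Markers of the tissues of the gastrula were present in every library, among them tbxta of the mesoderm, sox32 of the endoderm, sox3 of the neural ectoderm, krt4 of the enveloping layer and pou5f3 of the blastoderm. The exception was gsc, a defining gene of the organizer, which lay between 0.0287 and 0.0739 CPM, the counts scaled to a common library size, in I14 exposed pools and between 0.00 and 1.81 CPM in I14 controls. It lay between 0.0875 and 2.104 CPM in I13 exposed pools and between 0.0242 and 2.07 CPM in I13 controls. The first principal component, with 58.8% of the variance, separated the batches. In I14, exposed pools had more read pairs at several places of the genome than their controls (17.2 to 17.8% against 14.9 to 16.6%), and exposed replicate 3 of I13 stood apart with 35.7% against 15.3 to 16.8% in the 3 other exposed pools of its batch. Pairs that fell on no annotated gene took 5.14 to 5.31% of uniquely mapped pairs in I14 exposed pools, against 5.59 to 6.36% in I14 controls, and counts on the opposite strand 1.65 to 1.69%, against 1.70 to 1.82%, also without overlap. Over both batches, none of 8 measures of library quality and composition differed between exposed and control pools after adjustment (exact permutation tests within batches over 2450 arrangements, two-sided, adjusted p from 0.211 to 0.798). Control replicates 3 and 4 of I13, which the study set aside, stood apart from control replicates 1 and 2 in ribosomal protein genes, as given there. Over all genes this split was less plain. On the first principal component, I13 controls 1 to 4 lay at -73.7, -100.2, -27.3 and -62.2, and I13 exposed pools between -90.8 and -49.96. Chi-square over its degrees of freedom was 28.4 between controls 1 and 2 and 27.8 between 3 and 4. Across these pairs it ran from 26.5 to 123.9. In I14, control replicate 1 stood apart over all genes. Chi-square over its degrees of freedom was 44.95 to 54.8 between it and the other I14 controls, and 6.87 to 9.00 among those. On the second principal component, with 6.90% of the variance, it lay at 22.2. There I14 exposed pools lay at 29.9 to 33.6 and I14 controls 2 to 4 at -59.9 to -18.8. Counts of called genes are given with and without control replicates 3 and 4 of I13.

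No gene passed the threshold for a differentially expressed gene (DEG), set at an adjusted p under 0.01 with a fold change of 1.5 or more. Of 16349 genes tested, 0 were DEG (0.0%) by the quasi-likelihood test of edgeR with Benjamini-Hochberg adjusted p, and 0 (0.0%) had an adjusted p under 0.05 with no minimum fold. At an unadjusted p under 0.05, 420 genes were higher in exposed pools (2.57%) and 433 were lower (2.65%). With DESeq2 there were 1 DEG and 3 genes with an adjusted p under 0.05, and with limma-voom 0 DEG and 1 such gene. The 3 genes of DESeq2 were PLOD1, NIPSNAP1 and PER2, and the gene of limma-voom was PLOD1. The median standard error (SE) of the log2 fold change was 0.17. For 60.8% of the genes the 95% interval of the effect lay wholly inside a fold change of 1.5 in either direction, and for the 12311 genes of at least 1 CPM on average this share was 79.9%.

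The lowest p belonged to PLOD1 (ENSDARG00000059746), an enzyme that hydroxylates lysines of collagen in the endoplasmic reticulum. Its level was 6.36, 4.43 and 6.70 CPM in pools at 0.005 mGy/h, against 9.77, 9.93, 8.57 and 6.38 CPM in I14 controls. At 0.05 mGy/h it was 3.85, 3.56, 3.07 and 3.99 CPM, against 10.8, 7.77, 12.6 and 9.65 CPM in I13 controls. The groups did not overlap in I13 and touched in I14, where 1 control lay among the exposed pools. The shared log2 fold change was -1.07 (SE 0.17), with an adjusted p of 0.0767 from edgeR's quasi-likelihood test. The effect was -0.57 at 0.005 mGy/h and -1.49 at 0.05 mGy/h. The test of the difference between batches gave an unadjusted p of 0.0035 and an adjusted p of 0.99981 for this gene in edgeR's quasi-likelihood test. In DESeq2 it was a DEG (adjusted p = 2.8e-05), and the alternatives gave adjusted p from 2.8e-05 to 0.895. The highest of these came from the fit with no batch covariate.

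Another collagen enzyme, the prolyl hydroxylase subunit P4HA1, was also among the 12 genes with the lowest p on the lower side. It had 4.52, 2.02 and 3.21 CPM at 0.005 mGy/h, against 5.84, 2.73, 2.91 and 3.53 CPM in I14 controls, and the groups overlapped. At 0.05 mGy/h it had 1.72, 1.95, 2.13 and 1.79 CPM, against 4.54, 3.46, 3.70 and 4.72 CPM in I13 controls, with no overlap. The shared log2 fold change was -0.70 (SE 0.21), and the gene did not pass. Other collagen enzymes had smaller effects of either sign. In a fit over all 39 libraries, the low dose rate effect was -0.11 for p4ha1a, 0.04 for P4HA2 and 0.10 for COLGALT1. Collagen enzymes were not tested as a set.

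**Figure D1:**
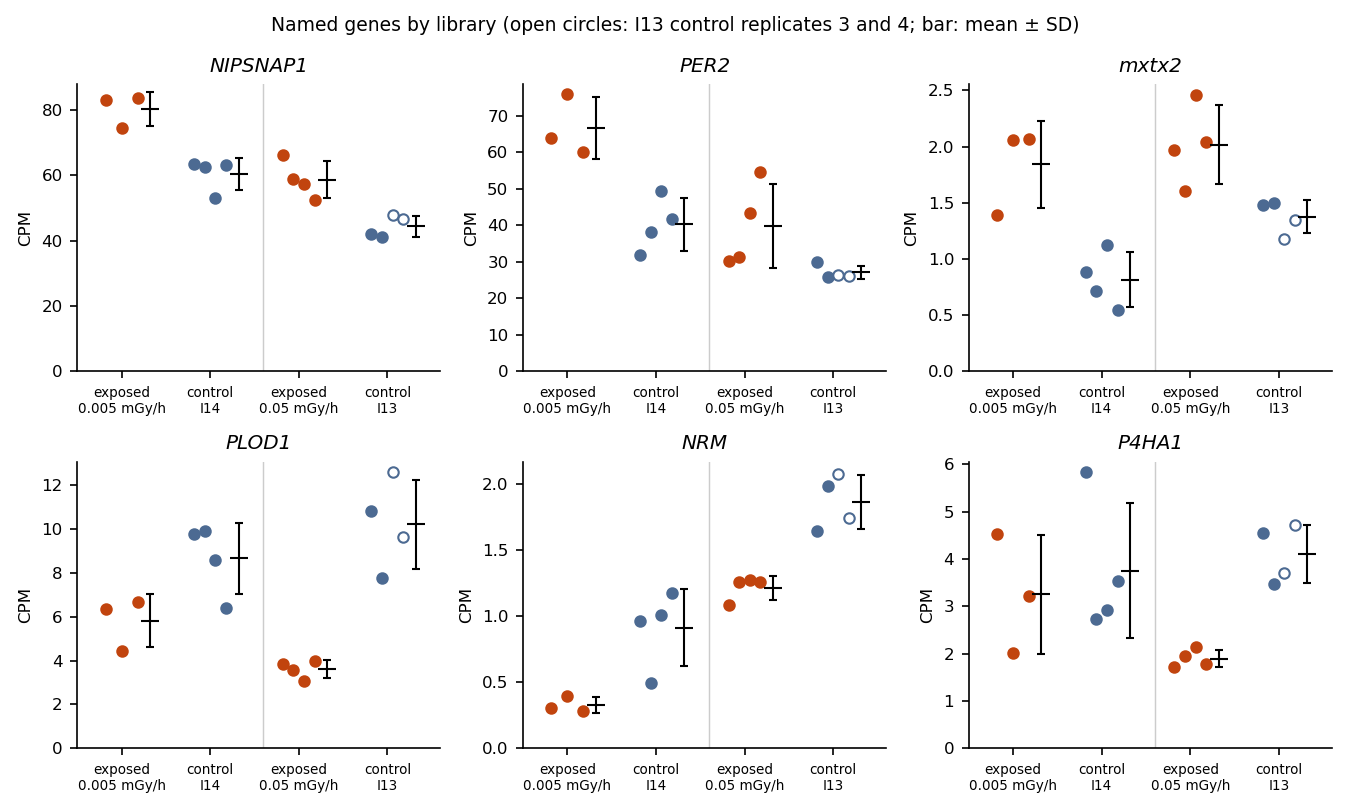
CPM of NIPSNAP1, PER2, mxtx2, PLOD1, NRM and P4HA1 in each library, with exposed pools left of the controls of their batch, I14 on the left and I13 on the right of each panel. Points are libraries and bars the mean and SD. NIPSNAP1, PER2 and mxtx2 lay above and NRM below the controls in both batches without overlap, whereas PLOD1 and P4HA1 separated the groups in I13 only.

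On the higher side, the lowest p belonged to NIPSNAP1 (ENSDARG00000005320), which encodes a mitochondrial protein. It had 83.0, 74.4 and 83.8 CPM at 0.005 mGy/h, against 63.3, 62.4, 52.98 and 63.00 CPM in I14 controls. In I13, exposed pools had 66.1, 58.9, 57.3 and 52.5 CPM, against 42.1, 41.0, 47.8 and 46.4 CPM in I13 controls. Every exposed pool lay above every control of its batch. The log2 fold change was 0.41 (SE 0.08), or 0.41 at 0.005 mGy/h beside 0.40 at 0.05 mGy/h, and the adjusted p was 0.283 in edgeR's quasi-likelihood test. Without any of the 15 libraries in turn, the log2 fold change stayed between 0.38 and 0.43.

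PER2 (ENSDARG00000034503), a repressor of the circadian clock that light induces in zebrafish, followed. It had 64.0, 76.1 and 60.0 CPM at 0.005 mGy/h, against 31.9, 38.1, 49.3 and 41.8 CPM in I14 controls. Pools at 0.05 mGy/h had 30.3, 31.3, 43.3 and 54.8 CPM, against 29.8, 25.9, 26.5 and 26.1 CPM in I13 controls. The groups did not overlap in either batch, but in I13 exposed replicates 1 and 2 lay just above the highest control. The log2 fold change was 0.64 (SE 0.12, adjusted p = 0.283 in edgeR's quasi-likelihood test). The cryptochrome cry3b was also among the 12 genes with the lowest p on this side. It had 20.6, 23.4 and 15.9 CPM at 0.005 mGy/h, against 9.73, 11.9, 12.1 and 9.69 CPM in I14 controls, and 15.3, 13.6, 13.8 and 13.3 CPM at 0.05 mGy/h, against 12.2, 14.4, 8.16 and 9.73 CPM in I13 controls. The groups overlapped in I13, and the log2 fold change was 0.58 (SE 0.13).

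A list of 26 tested clock and light-responsive genes was drawn up after these values were seen and is a description only. Of the 26 genes, 6 were higher and 0 lower at an unadjusted p under 0.05, beside 2.57% of all genes higher and 2.65% lower. Among the 6 were CRY1 at 0.50 (SE 0.14), lonrf1 at 0.39 (SE 0.10) and cry3a at 0.26 (SE 0.09) on the log2 scale. By sign the list was split evenly, with 13 genes positive and 13 negative. The median log2 fold change of the list was 0.02, against 0.01 over all genes tested. Lonrf1 had 46.5, 40.2 and 47.5 CPM at 0.005 mGy/h, against 35.3, 35.2, 41.3 and 34.6 CPM in I14 controls. At 0.05 mGy/h it had 42.1, 45.6, 56.6 and 49.8 CPM, against 41.2, 40.6, 27.7 and 29.97 CPM in I13 controls, where every exposed pool lay above every control. Embryos were grown under light and dark cycles, and the light each pool received, which is not given in the sources used here, was not tested.

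Among transcription factors, mxtx2, a homeobox gene needed to form the yolk syncytial layer, had 1.39, 2.06 and 2.07 CPM at 0.005 mGy/h, against 0.884, 0.709, 1.12 and 0.543 CPM in I14 controls. In I13, exposed pools had 1.97, 1.601, 2.46 and 2.04 CPM, against 1.48, 1.49, 1.18 and 1.35 CPM in I13 controls. The groups did not overlap in either batch, and the log2 fold change was 0.81 (SE 0.19). With CPM on raw totals they overlapped in I13, at 1.77 to 2.65 CPM in exposed pools and 1.17 to 1.91 CPM in controls. JUNB, a subunit of the immediate early factor AP-1, had 3.64, 6.35 and 5.03 CPM at 0.005 mGy/h, against 2.19, 2.13, 2.74 and 1.58 CPM in I14 controls. In I13 it had 2.15, 2.09, 2.13 and 2.76 CPM in exposed pools, against 2.08, 1.32, 2.22 and 1.95 CPM in controls, with overlap. Its log2 fold change was 0.71 (SE 0.19), with 1.21 at 0.005 mGy/h and 0.28 at 0.05 mGy/h.

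The other genes of lowest p on the higher side were of mixed function. The WD repeat gene wdr76 had a log2 fold change of 0.54 (SE 0.12) and the gluconeogenic enzyme fbp1b, a fructose bisphosphatase, 0.33 (SE 0.08). Themis2, known in mammals as a signalling adaptor of immune cells, was at 1.53 (SE 0.41) from means of at most 0.588 CPM in any group. Pmt, echdc3 and si:ch211-202h14.1 completed the 12 genes, with 1.16 (SE 0.29), 0.87 (SE 0.24) and 0.38 (SE 0.10).

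On the lower side, NRM, which encodes the inner nuclear membrane protein nurim, had 0.306, 0.394 and 0.284 CPM at 0.005 mGy/h, against 0.961, 0.496, 1.01 and 1.18 CPM in I14 controls. Pools at 0.05 mGy/h had 1.08, 1.25, 1.27 and 1.26 CPM, against 1.64, 1.99, 2.08 and 1.74 CPM in I13 controls. All exposed pools lay below all controls of their batch, and the log2 fold change was -0.91 (SE 0.22). Akt1s1, an inhibitory subunit of the growth kinase complex mTORC1, was the most abundant of the 12 genes. It had 244, 272 and 255 CPM at 0.005 mGy/h, against 283, 309, 337 and 324 CPM in I14 controls, and 204, 225, 194 and 232 CPM at 0.05 mGy/h, against 255, 230, 308 and 259 CPM in I13 controls. The groups overlapped only in I13, by 1 exposed pool and 1 control, and the log2 fold change was -0.29 (SE 0.08). GSKIP, which binds the kinase GSK3, was at -0.50 (SE 0.14), with -0.92 at 0.005 mGy/h and -0.18 at 0.05 mGy/h. The kinases CDC42BPA and TESK1 were at -0.61 (SE 0.18) and -0.65 (SE 0.18). FNDC3A was at -0.41 (SE 0.12), TANGO2 at -1.33 (SE 0.34) and zgc:171679 at -1.21 (SE 0.35). The receptor GPR37L1 and the adaptor SH2D3C, at -1.48 (SE 0.40) and -1.79 (SE 0.49), averaged under 1 CPM in every group, as did zgc:171679. None of these 24 genes passed edgeR's quasi-likelihood test, with adjusted p of 0.91 for all but PLOD1, NIPSNAP1 and PER2.

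Over all genes tested, 9 lay above the controls in both batches without overlap (0.055%) and 3 lay below (0.0183%). Of the 2450 arrangements of exposed and control labels within the batches, 1 puts a gene's exposed pools above its controls in both. Likewise, 1 puts them below. Over 16349 genes several are thus due to separate each way by chance, so that non-overlap is by itself no mark of an effect. The 9 genes were NIPSNAP1, PER2, mxtx2, themis2, the biliverdin reductase BLVRA, prok1, ankrd10b, C2CD2L and the lanosterol synthase LSS. Mxtx2 overlapped in I13 with CPM on raw totals, as given above. The 3 genes were NRM, zgc:171679 and the glycine transporter SLC6A9. Of these 12 genes, 6 were among the 24 named by their p, and the others were named after their values were seen. Another 2 genes lay above the controls in 1 batch and below them in the other. Across genes, the effects of the batches, which share no library, had a Pearson correlation of 0.13 and a Spearman correlation of 0.11, and 54.7% of genes had the same sign. Genes are not independent replicates, so these values are a description.

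The genes of the response to DNA damage were close to the background of all genes. The median log2 fold change of 33 tested genes of the transcriptional damage response was -0.01. At an unadjusted p under 0.05, 2 were higher (6.06%, beside 2.57% of all genes) and 0 lower. They were RRM2B, a ribonucleotide reductase subunit, at 0.32 (SE 0.13), and rps27l, which damage induces in mammals, at 0.28 (SE 0.13). Mdm2 was at 0.00 (SE 0.14) and cdkn1a at -0.23 (SE 0.22). Cdkn1a had 0.85, 0.745 and 0.933 CPM at 0.005 mGy/h, against 1.35, 0.922, 1.06 and 2.31 CPM in I14 controls, and 1.42, 1.47, 1.35 and 1.28 CPM at 0.05 mGy/h, against 1.09, 1.53, 1.26 and 1.14 CPM in I13 controls. It overlapped between the groups in both batches. Of 41 genes of double strand break repair and the checkpoint, 0 were higher and 1 was lower at an unadjusted p under 0.05. The share lower was 2.44%, beside 2.65% of all genes, and the median was 0.01. The lower gene was XRCC2, which acts in homologous recombination, at -1.53 (SE 0.59) and at most 0.304 CPM on average in any group. The histone variant h2ax, which is phosphorylated at breaks, was at 0.35 (SE 0.17). Of 31 genes of excision and mismatch repair, 0 had an unadjusted p under 0.05 in edgeR's quasi-likelihood test, and the lowest p belonged to MSH3 at -0.30 (SE 0.15) and DDB2 at 0.31 (SE 0.20).

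The antioxidant list also had 0 of 31 genes at an unadjusted p under 0.05 in edgeR's quasi-likelihood test, led by the glutathione synthetase GSS at 0.22 (SE 0.11) and the peroxidase gpx1a at 0.32 (SE 0.18). Of 17 heat shock genes and chaperones, 1 was higher (5.88%, beside 2.57% of all genes). This was the endoplasmic reticulum chaperone HSPA5 at 0.29 (SE 0.10), and HSPB1 was at 0.24 (SE 0.13). Of 23 genes of apoptosis, 1 was higher (4.35%), the inhibitor BIRC5 at 0.30 (SE 0.12), and the proapoptotic bbc3 was at -0.47 (SE 0.28). Of 39 genes of the cell cycle, 1 was higher (2.56%). This was the cyclin ccnb3 at 0.19 (SE 0.08), and the mitotic inhibitor WEE1 was at 0.17 (SE 0.08). The medians of these 4 lists lay between -0.02 and 0.05, against 0.01 over all genes tested, and none of their genes had an adjusted p under 0.05.

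**Figure D2:**
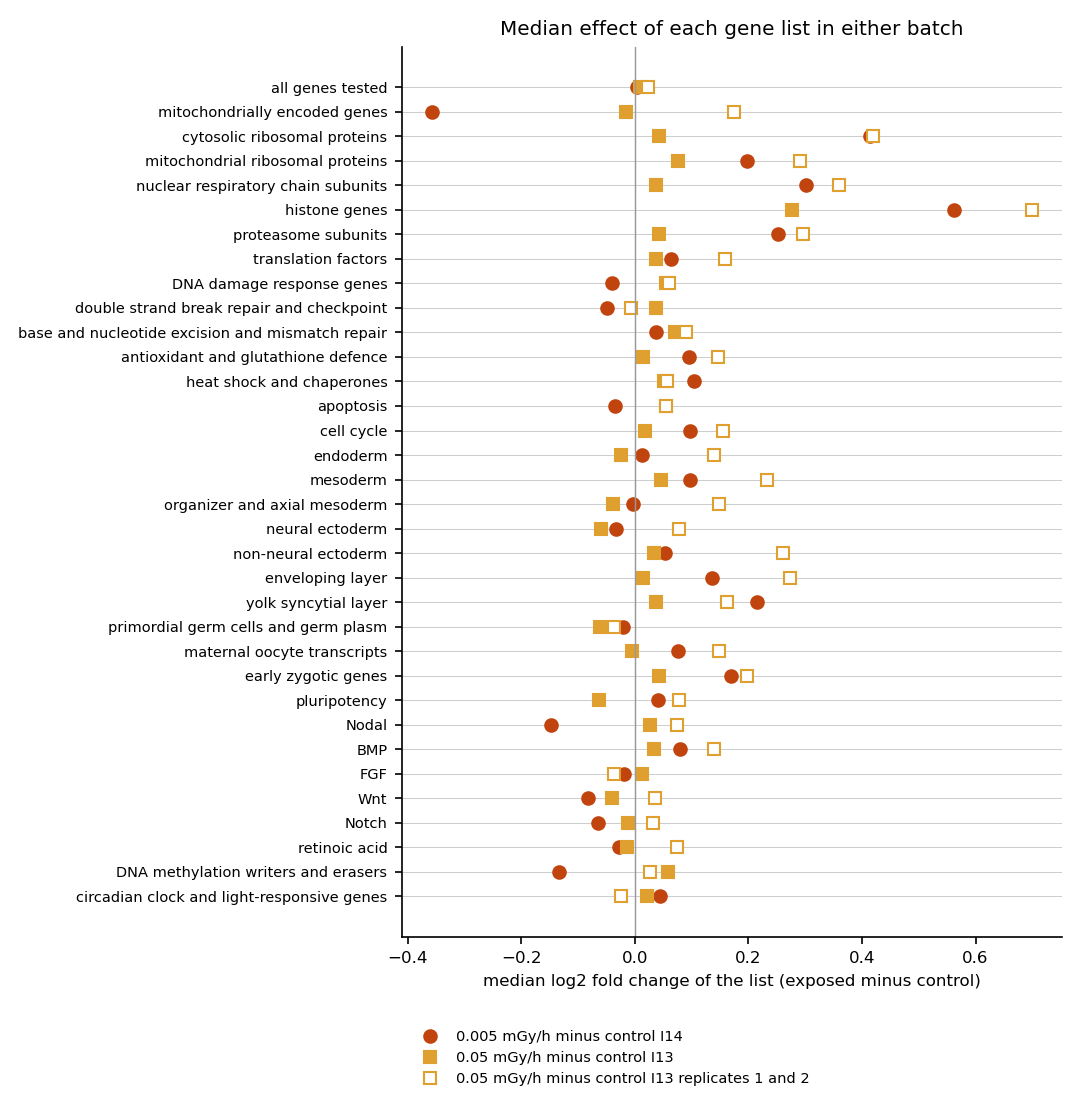
Median log2 fold change (horizontal axis) of each gene list and of all genes tested, as exposed minus control, at 0.005 mGy/h (circles), at 0.05 mGy/h over all 4 controls of I13 (filled squares) and at 0.05 mGy/h over control replicates 1 and 2 of I13 (open squares). Cytosolic ribosomal proteins lay at 0.41 at 0.005 mGy/h, and at 0.04 or 0.42 at 0.05 mGy/h with or without control replicates 3 and 4.

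The largest list medians belonged to genes of protein synthesis, energy metabolism and chromatin. Of 77 tested genes of cytosolic ribosomal proteins, 74 had a positive log2 fold change, 11 were higher at an unadjusted p under 0.05 and 0 were lower. Over all genes tested, 51.9% had a positive log2 fold change, 2.57% were higher and 2.65% were lower at that p. The median was 0.21, with 0.41 at 0.005 mGy/h and 0.04 at 0.05 mGy/h. The lowest p belonged to RPL22 at 0.27 (SE 0.11), RPS15 at 0.55 (SE 0.23) and RPL38 at 0.29 (SE 0.12). RPL38 had 669, 853 and 613 CPM at 0.005 mGy/h, against 542, 464, 531 and 520 CPM in I14 controls. At 0.05 mGy/h it had 345, 409, 362 and 334 CPM, against 257, 236, 431 and 389 CPM in I13 controls 1 to 4. Control replicates 1 and 2 of I13 thus lay below the exposed pools, control replicate 4 inside their range and control replicate 3 above it.

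Ribosomal protein genes took 6.81, 7.63 and 6.22% of all gene counts at 0.005 mGy/h, against 5.83, 5.73, 5.71 and 5.36% in I14 controls. In I13, exposed pools took 4.61, 4.80, 4.78 and 4.58%, against 4.14, 3.71, 5.22 and 5.25% in I13 controls 1 to 4. In I14 all exposed pools were above all controls. In I13 all exposed pools were above control replicates 1 and 2 and below control replicates 3 and 4. The share of uniquely mapped pairs on no annotated gene separated the same libraries in the opposite order. It was lower in I14 exposed pools than in their controls, and in I13 it was 7.85 to 8.14% in exposed pools, against 8.79, 9.88, 6.99 and 7.43% in controls 1 to 4. Its part in the ribosomal protein values was not tested. In whole embryos, a larger share of cells rich in these transcripts and more of them per cell cannot be told apart.

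**Figure D3:**
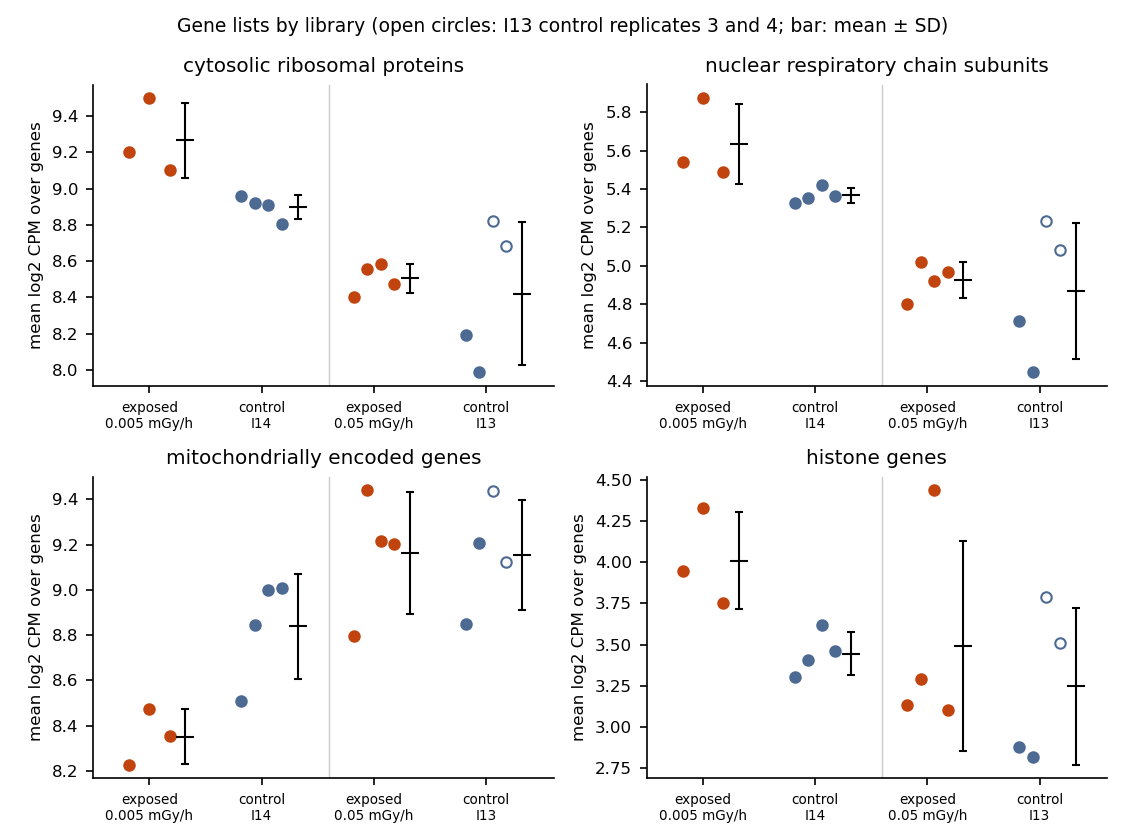
Mean log2 CPM (vertical axes) over the genes of cytosolic ribosomal proteins, nuclear subunits of the respiratory chain, mitochondrially encoded genes and histone genes in each library, with exposed pools left of the controls of their batch. Open circles are control replicates 3 and 4 of I13, and bars are the mean and SD. Ribosomal proteins lay between 9.10 and 9.50 in exposed pools of I14 and between 8.81 and 8.96 in their controls, and exposed replicate 3 of I13 had the highest histone level of its group, at 4.44.

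Nuclear subunits of the respiratory chain, which with mitochondrially encoded subunits make ATP, had a positive median as well. Of 80 genes, 72 had a positive log2 fold change, 3 were higher and 0 lower at an unadjusted p under 0.05, and the median was 0.16 (0.30 at 0.005 mGy/h and 0.04 at 0.05 mGy/h). The 3 genes are 3.75% of the list, near the 2.57% of all genes. NDUFB11, a subunit of complex I, was at 0.48 (SE 0.17). It had 13.3, 19.7 and 11.97 CPM at 0.005 mGy/h, against 9.30, 9.50, 7.45 and 7.51 CPM in I14 controls. Pools at 0.05 mGy/h had 5.71, 5.86, 6.43 and 4.94 CPM, against 3.36, 3.67, 6.70 and 6.54 CPM in I13 controls 1 to 4. The exposed pools of I13 again lay between control replicates 1 and 2 on one side and control replicates 3 and 4 on the other. NDUFS3, another subunit of complex I, was at 0.27 (SE 0.11).

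The subunits that the mitochondrial genome encodes had a negative median in I14 and a median near 0 in I13. Of 13 genes, 2 had a positive log2 fold change. At an unadjusted p under 0.05, 0 were higher and 3 lower (23.1%, beside 2.65% of all genes). The median was -0.18 (-0.36 at 0.005 mGy/h and -0.02 at 0.05 mGy/h). Over control replicates 1 and 2 of I13 alone the median at 0.05 mGy/h was 0.17. For the difference between batches, 6 of the 13 genes had an unadjusted p under 0.05, beside 3.66% of all genes tested. None of them had an adjusted p under 0.05. The 3 lower genes were the complex I subunits MT-ND6 at -0.33 (SE 0.12), MT-ND5 at -0.34 (SE 0.13) and mt-nd4l at -0.41 (SE 0.18). MT-ND5 had 221, 236 and 226 CPM at 0.005 mGy/h, against 280, 411, 397 and 442 CPM in I14 controls. At 0.05 mGy/h it had 313, 384, 329 and 329 CPM, against 287, 406, 354 and 303 CPM in I13 controls, with full overlap. The share of counts on mitochondrial genes lay between 1.08 and 1.41% in exposed pools of I14, against 1.66 to 1.87% in their controls. In I13 it was 2.05 to 2.56% in exposed pools, against 1.86 to 2.51% in controls. The 2 batches together gave an exact permutation p of 0.049 for this share and 0.0527 for the share of ribosomal proteins, and both had an adjusted p of 0.211 over the 8 measures.

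Mitochondrial ribosomal proteins had 64 of 74 genes with a positive log2 fold change and a median of 0.13. At an unadjusted p under 0.05, 6 genes were higher (8.11%, beside 2.57% of all genes) and 0 lower. They included MRPL22 at 0.25 (SE 0.10), MRPL15 at 0.27 (SE 0.11) and mrpl20 at 0.46 (SE 0.19). Of 43 proteasome subunits, 41 had a positive log2 fold change, 5 were higher (11.6%) and 0 lower, and the median was 0.14. PSMD9, an assembly chaperone of the proteasome, was at 0.36 (SE 0.10) and PSMA2, a subunit of its core, at 0.21 (SE 0.08). Translation factors were nearer to the background, with 2 of 64 genes higher, 0 lower and a median of 0.04. The 2 genes were the elongation factor EEF1B2 at 0.26 (SE 0.10) and the initiation factor EIF3K at 0.24 (SE 0.10). None of the genes of these lists had an adjusted p under 0.05 over the 15 libraries.

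Histone genes had the highest median, 0.42, with 0.56 at 0.005 mGy/h, against 0.28 at 0.05 mGy/h. Of 25 genes, 9 were higher (36.0%, beside 2.57% of all genes) and 0 lower at an unadjusted p under 0.05. They included hist1h2a1 at 1.39 (SE 0.47), h2bc1 at 1.52 (SE 0.54) and h2ax2 at 0.68 (SE 0.25). H2bc1 had 1.84, 1.80 and 1.62 CPM at 0.005 mGy/h, against 0.654, 0.213, 0.672 and 0.498 CPM in I14 controls. In I13, exposed pools had 0.803, 0.637, 8.72 and 0.530 CPM, against 0.410, 0.567, 2.104 and 1.04 CPM in I13 controls. The value of 8.72 CPM belonged to exposed replicate 3, the library with 35.7% of read pairs at several places. All histone genes together took 1.27 to 1.37% of counts in I14 exposed pools, against 1.13 to 1.29% in I14 controls, and 1.205 to 1.36% in I13 exposed pools, against 1.104 to 1.42% in I13 controls. These shares overlapped in both batches, and the median over genes weights scarce and abundant copies alike. Without exposed replicate 3 of I13 the median of the list was 0.21, h2bc1 was at 0.55 and hist1h2a1 at 0.71. Most histone messages end without a poly(A) tail, and these libraries were made by poly(A) selection. Histone genes also have near-identical copies, and only read pairs with a single place in the genome were counted, so that the level of a single copy is uncertain. The part of both in these values was not tested.

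Leaving out control replicates 3 and 4 of I13, as in the set of samples used in the study, changed the outcome. The study set them aside as potential outliers by clustering the expression values themselves, to gain power. The p-values of the 13 libraries do not account for that choice. Of 16745 genes tested in the 13 remaining libraries, 187 rose (1.12%) and 56 fell (0.334%) by edgeR's quasi-likelihood test at a Benjamini-Hochberg adjusted p under 0.05. The number of DEG was still 0, since the lowest adjusted p was 0.0268. The study compared conditions pairwise with DESeq2 rather than pooling the low dose rates, so its own counts of DEG are not set beside this 0. At an unadjusted p under 0.05 there were 2716 genes, or 16.2% of those tested, against 5.22% over the 15 libraries. DESeq2 on the same 13 libraries gave 961 genes with an adjusted p under 0.05 and 55 DEG. Leaving out either of these 2 controls alone gave 0 genes with an adjusted p under 0.05 in edgeR, and 1871 genes without replicate 3 and 1129 genes without replicate 4 at an unadjusted p under 0.05.

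**Figure D4:**
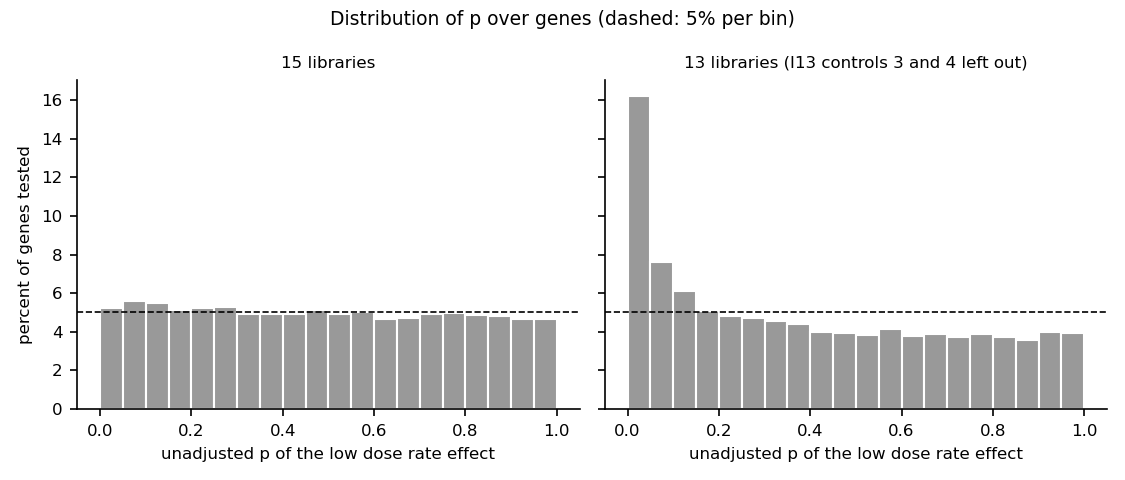
Share of genes (vertical axis, in percent) by unadjusted p of the low dose rate effect (horizontal axis, bins of 0.05) over the 15 libraries and over the 13 libraries left without control replicates 3 and 4 of I13. The lowest bin held 5.22% of genes over the 15 libraries and 16.2% over the 13 libraries.

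In the 13 libraries, 40 cytosolic ribosomal protein genes rose and 0 fell, or 51.9% of the list as against 1.12% of all genes. Their median log2 fold change was 0.42. They included RPL30 at 0.51, RPS2 at 0.72 and RPL38 at 0.51. Of the nuclear respiratory chain genes 12 rose, with NDUFB11 at 0.77 and the cytochrome c oxidase subunit cox5aa at 0.41, and the median was 0.33. Of the proteasome subunits 5 rose, and of the translation factors 4 rose and 1 fell. Of the mitochondrial ribosomal proteins 2 rose, mrps6 at 0.51 and mrpl20 at 0.79. Of the histone genes 1 rose. Of 39 cell cycle genes 2 rose, the mitotic kinase AURKB at 0.46 and the replicative helicase subunit MCM7 at 0.55, and 0 fell. None of the damage response, repair, antioxidant, heat shock and apoptosis lists had a gene with an adjusted p under 0.05 there. The libraries left out are those whose ribosomal protein share lay above that of the exposed pools of I13. Which pair of controls is closer to unexposed embryos of that batch was not tested.

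Of the 24 genes named by their p over the 15 libraries, 9 had an adjusted p under 0.05 in the 13 libraries. Over all genes tested there, 1.12% rose and 0.334% fell at that threshold. The 15 libraries include these 13, so the overlap is no independent support. NIPSNAP1 rose by 0.45, PER2 by 0.63, JUNB by 0.87 and si:ch211-202h14.1 by 0.46 on the log2 scale. PLOD1 fell by 0.92, GSKIP by 0.68, CDC42BPA by 0.78, FNDC3A by 0.50 and TANGO2 by 1.59. Adjusted p lay between 0.0268 and 0.0468 for these genes in edgeR's quasi-likelihood test.

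Genes of the tissue layers were read as markers of the makeup of the pools. Over all genes tested, 2.57% were higher and 2.65% lower at an unadjusted p under 0.05, which is the background for each tissue and stage list. In the mesoderm list, 2 of 23 genes were higher (8.70%) and 1 was lower (4.35%) at that p, with a median of 0.11. The ventral repressor vox was at 0.26 (SE 0.11), the T-box gene tbx6 at 0.38 (SE 0.16) and the ventral repressor vent at -0.56 (SE 0.25). Vent had 9.42, 8.24 and 7.67 CPM at 0.005 mGy/h, against 12.3, 26.4, 25.8 and 24.8 CPM in I14 controls. Pools at 0.05 mGy/h had 57.3, 99.9, 106 and 79.6 CPM, against 97.4, 107, 53.2 and 72.7 CPM in I13 controls, so that exposed pools were lower in I14 only and the batches differed in level. In the neural ectoderm list, 1 of 19 genes was higher (5.26%) and 2 were lower (10.5%), with a median of -0.06. The anterior homeobox gene OTX1 was at -0.27 (SE 0.09), ZIC2 at -0.18 (SE 0.08) and CYP26A1, the enzyme that breaks down retinoic acid, at 0.23 (SE 0.08). In the endoderm list 0 of 11 genes had an unadjusted p under 0.05 in edgeR's quasi-likelihood test, with sox32 at 0.15 (SE 0.08) and SOX17 at -0.17 (SE 0.12). The organizer list had 0 of 18 genes higher and 1 lower (5.56%), PLOD1. The non-neural ectoderm had 0 of 19, with foxi1 at 0.20 (SE 0.10) and TFAP2A at -0.17 (SE 0.09).

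Of the layers outside the embryo proper, the enveloping layer had 1 of 25 genes higher, the keratin krt17 at 0.23 (SE 0.11), a median of 0.10, and icn at 0.37 (SE 0.18). In the 13 libraries the median was 0.18. At an adjusted p under 0.05, 4 of the 25 genes rose (16.0%, beside 1.12% of all genes) and 0 fell. They were the keratins krt17 at 0.39, krt92 at 0.43, cyt1 at 0.46 and cyt1l at 0.45. The level of the list, as the mean over genes of log2 CPM, was 6.71 to 6.93 in exposed pools of I14, against 6.58 to 6.71 in controls. In I13 it was 6.70 to 6.89 in exposed pools, against 6.63, 6.58, 6.94 and 6.90 in controls 1 to 4. Exposed pools of I13 thus lay above control replicates 1 and 2 and below control replicates 3 and 4. The yolk syncytial layer had 3 of 16 genes higher (18.75%, beside 2.57% of all genes) and 0 lower, with a median of 0.11. Beside mxtx2 these were the apolipoproteins apoa4b.2 at 0.28 (SE 0.11) and apoa2 at 0.34 (SE 0.14), which the yolk syncytial layer uses to export lipid. Without control replicates 3 and 4 of I13, 2 of the 16 genes rose (12.5%, beside 1.12% of all genes) and 0 fell. They were apoa2 at 0.52 and the apolipoprotein apoeb at 0.27. The mean log2 CPM of this list was 4.11 to 4.34 in exposed pools of I14, against 3.77 to 4.22 in controls, and 4.53 to 4.85 in exposed pools of I13, against 4.54 to 4.69 in controls.

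Of 17 germ plasm genes, 0 were higher and 3 lower at an unadjusted p under 0.05, beside 2.65% of all genes lower, and the median was -0.09. The 3 genes were buc, the organiser of germ plasm, at -0.92 (SE 0.35), TDRD1, a Tudor protein of the piRNA pathway, at -0.63 (SE 0.29), and gra at -0.23 (SE 0.11). Buc, which the mother deposits, had 5.51, 9.25 and 6.09 CPM at 0.005 mGy/h, against 7.38, 7.05, 11.3 and 8.37 CPM in I14 controls. At 0.05 mGy/h it had 6.07, 3.66, 6.43 and 8.12 CPM, against 29.7, 24.7, 6.48 and 4.05 CPM in I13 controls 1 to 4. Its difference in I13 thus came from control replicates 1 and 2, and with replicates 3 and 4 left out the log2 fold change was -1.19. TDRD1 was split in the same way, with 2.39, 1.84, 1.39 and 2.18 CPM at 0.05 mGy/h, against 6.72, 4.99, 1.80 and 2.34 CPM in I13 controls 1 to 4. The wider list of maternal oocyte transcripts had 2 of 33 genes higher and 1 lower, with a median of 0.05, and LHX8 was at 0.65 (SE 0.28). The list of early zygotic genes had 3 of 34 genes higher and 1 lower, with a median of 0.09, and vgll4l was at 0.28 (SE 0.11). In the 13 libraries buc fell and YBX1, a maternal RNA-binding protein, rose by 0.39, and of the early zygotic genes 3 rose and 0 fell, apoeb and the ventral repressors vox at 0.41 and ved at 0.43. Vox and ved also rose in the mesoderm list there, hhex rose by 0.78 in the endoderm and organizer lists, PLOD1 fell in the organizer list and GATA2 rose in the non-neural ectoderm list.

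Over the 15 libraries, signalling pathways of gastrulation showed few genes of low p. Over all genes tested, 2.57% were higher and 2.65% lower at an unadjusted p under 0.05. Of 31 genes of the BMP pathway 2 were higher and 2 lower at that p (6.45% each). Among them were the target ID1 at 0.22 (SE 0.10) and the receptor acvr1l at -0.20 (SE 0.09). In the 13 libraries 5 BMP genes rose and 0 fell at an adjusted p under 0.05 (16.1% of the list, beside 1.12% of all genes), with a list median of 0.11. They were ID1 at 0.35, the inhibitor SMAD7 at 0.40, the transcription factor GATA2 at 0.34, vox and ved. The mean log2 CPM of the BMP list was 4.96 to 5.11 in I13 exposed pools. In I13 controls 1 to 4 it was 4.93, 4.95, 5.14 and 5.10, so that only control replicates 1 and 2 lay below all exposed pools. In the Wnt list only the co-receptor LRP6 rose in the 13 libraries, by 0.68, and in the methylation list only UHRF1 fell, by 0.35. Of 37 genes of the Wnt pathway 0 were higher and 2 lower (5.41%). The 2 were the repressor tcf7l1b at -0.28 (SE 0.09) and dvl2, which relays the signal, at -0.18 (SE 0.08). Nodal, FGF and Notch had 0 genes at an unadjusted p under 0.05 of 17, 21 and 25 in edgeR's quasi-likelihood test, and the retinoic acid list had 1 of 20 higher, CYP26A1. Of 14 writers and erasers of DNA methylation, 0 were higher and 1 was lower (7.14%), UHRF1, which guides maintenance methylation, at -0.22 (SE 0.10). The medians of the 6 pathway and methylation lists other than BMP lay between -0.07 and 0.00, and that of BMP was 0.05. Of the 13 pluripotency genes, 0 had an unadjusted p under 0.05.

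A test of whether the effect differed between the 2 batches called no gene. In edgeR's quasi-likelihood test of the interaction, 0 genes were DEG, 0 had an adjusted p under 0.05 and 598 had an unadjusted p under 0.05, or 3.66% of those tested. The count with an adjusted p under 0.05 was also 0 in DESeq2. This does not show that the effects were equal. The 5 genes of lowest p were ENSDARG00000110470, TMEM184C, si:dkey-172o19.2, vent and retsat.2, each with an unadjusted p under 0.001 and an adjusted p of 0.99981. For TMEM184C the log2 fold change was -1.25 at 0.005 mGy/h and 0.13 at 0.05 mGy/h, for the retinol saturase gene retsat.2 it was -0.80 and 0.17, and for ENSDARG00000110470, which has no symbol, 0.62 and -0.29. Vent was at -1.40 at 0.005 mGy/h, against 0.05 at 0.05 mGy/h, and si:dkey-172o19.2 averaged under 1 CPM in every group. All 5 separated the groups in I14 without overlap and overlapped in I13. They were picked by the difference between batches in these same libraries, so this pattern follows from the choice and is a description only. Taken separately within the same 15 libraries, the effect at 0.005 mGy/h had 0 DEG and 1589 genes at an unadjusted p under 0.05. The effect at 0.05 mGy/h had 1 DEG, PLOD1 (adjusted p = 0.0040, edgeR's quasi-likelihood test), and 211 genes at an unadjusted p under 0.05.

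The low dose rate effect was then set against the effects at 0.5 and 5 mGy/h, in 1 fit over all 39 libraries. Each effect was taken within its own batch, of 6 exposed and 6 control libraries at 0.5 and at 5 mGy/h. These dose rates too were run in 1 batch each, so that dose rate and batch cannot be told apart in these comparisons. Against 0.5 mGy/h, 20 of 17255 genes differed at an adjusted p under 0.05 (0.116%), and 19 of them were lower at the low dose rates. The log2 fold change of these 20 genes had a median of -0.21 at the low dose rates, against 0.52 at 0.5 mGy/h. The genes were called by this difference, so a gap between the medians follows from the choice. Of the 20 genes 2 also met the threshold of a DEG, PLOD1 and lamc1. PLOD1 was at -1.03 at the low dose rates, against 0.80 at 0.5 mGy/h, a difference of -1.83 (SE 0.23, adjusted p = 2.1e-05, edgeR's quasi-likelihood test). Lamc1, a laminin chain of basement membranes, was at -0.15, against 0.52 at 0.5 mGy/h (difference -0.66, SE 0.11). The integrin ITGB1, which binds laminin and collagen, was at -0.19, against 0.52, and the ephrin EFNB2 was at -0.26, against 0.43. The gene ENSDARG00000109929, which has no symbol, was at -0.21, against 0.55. For lamc1, ITGB1, EFNB2 and the gene without a symbol, the effect at 0.05 mGy/h lay between -0.06 and -0.01. Without the libraries that the study set aside, 661 genes differed, 484 lower and 177 higher at the low dose rates, and 57 were DEG. With each of the 15 low dose rate libraries left out in turn, the count ran from 4 genes without control replicate 2 of I13 to 150 genes without control replicate 3, and ITGB1 was not called without control replicate 2 of I13, exposed replicate 3 of I14 or control replicate 2 of I14.

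Against 5 mGy/h, 21 of 17255 genes differed at an adjusted p under 0.05 (0.122%), and 19 of them were lower at the low dose rates. Their log2 fold change had a median of 0.02 at the low dose rates, against 0.66 at 5 mGy/h, a gap that again follows from the choice of genes. The 5 genes of lowest p were MDK, the growth factor midkine, OTX2, a homeobox gene of the anterior neural plate, the ephrin receptor EPHB3, the protocadherin PCDH10 and the lipid phosphatase PLPP3. MDK was at 0.02 at the low dose rates, against 1.58 at 5 mGy/h, a difference of -1.57 (SE 0.23, adjusted p = 0.0008, edgeR's quasi-likelihood test). OTX2 was at 0.04, against 1.04, with a difference of -1.004 (SE 0.15). EPHB3 was at -0.07, against 0.81, PCDH10 at -0.23, against 1.13, and PLPP3 at -0.14, against 0.65. In the same fit 0.5 mGy/h had 2 DEG and 5 mGy/h had 141. With each low dose rate library left out in turn, the count against 5 mGy/h ran from 10 genes without exposed replicate 4 of I14 to 48 without control replicate 1 of I14, and was 34 without control replicate 2 of I13. Both comparisons share the 15 low dose rate libraries and are not independent of each other.

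**Figure D5:**
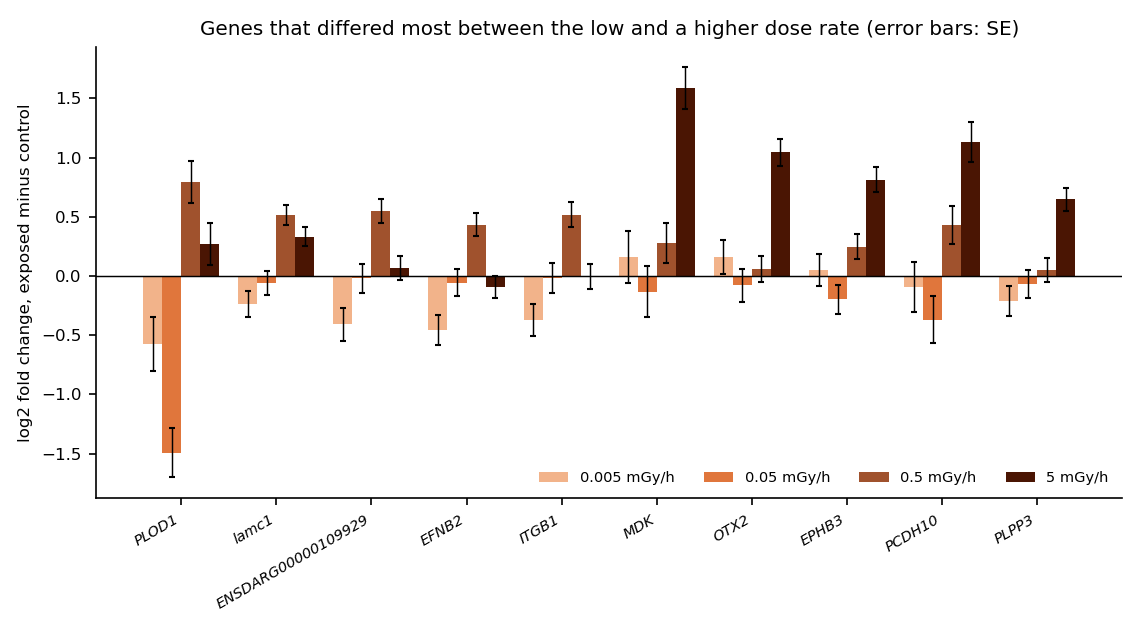
Log2 fold change of exposed over control (vertical axis) at 0.005, 0.05, 0.5 and 5 mGy/h, each within its own batch, for the 5 genes of lowest p in the comparison with 0.5 mGy/h and the 5 in that with 5 mGy/h. Bars are estimates of the fit over 39 libraries and error bars the SE. Each dose rate was run in 1 batch only, so that dose rate and batch cannot be told apart. MDK was at 0.16, -0.13, 0.28 and 1.58 from the lowest to the highest dose rate, and PLOD1 at -0.57, -1.49, 0.80 and 0.27.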

How the data were processed

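RNA of pools of whole embryos was extracted, selected by poly(A) and sequenced as stranded paired-end libraries. The authors trimmed adapters, mapped reads to GRCz11 with STAR and deposited raw counts of uniquely mapped read pairs per Ensembl gene. Counts of the reverse-stranded column were used, since the opposite column held at most 2.00% of the counts in these 15 libraries. Of 32057 genes, 28988 had a symbol.

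Counts were tested with edgeR 4.0.16 in R 4.3.3 (TMM, filterByExpr by group with a minimum count of 10 and a total of 15, quasi-likelihood test, two-sided, model of batch and exposure, Benjamini-Hochberg adjustment). Alternatives included DESeq2 1.42.0 and limma-voom (limma 3.58.1). CPM used TMM library sizes, except the marker levels of the opening, which used raw totals, and a prior count of 0.5 for log2 values. The script was tested on simulated data. Replicates are numbered in the labels and are biological replicates made from pools of embryos by the methods of the study. The p-values measure the spread between pools within a batch, not between irradiation batches of the same dose rate. Genes were named as the 12 of lowest p in each direction with the same sign in both batches, the 2 to 4 members of lowest p and defining members of each list, and the 5 genes of lowest p in each other test. Lists and the choice of libraries were made with earlier results of these data known, and the patterns of several lists were trimmed after the files were read.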

Additional observations from a re-analysis of the deposited data

Results flagged for a closer look

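In the groups of 4 libraries, 114 sets of values were examined for a library whose gap to the others took most of the range, and 8 were found. For independent sets of normally distributed values, chance gives about 1 in 20, or 5.7. These sets share libraries, and their genes were picked by p in the same libraries, so 5.7 is only a rough guide. Exposed replicate 3 of I13 had 35.7% of read pairs at several places in the genome, against 15.3 to 16.8% in the other exposed pools of its batch. The same library had a mean log2 CPM of histone genes of 4.44, against 3.10 to 3.29. Exposed replicate 4 of I13 had 2.76 CPM of JUNB, against 2.09 to 2.15 CPM, and exposed replicate 1 had 1.08 CPM of NRM, against 1.25 to 1.27 CPM.

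Control replicate 1 of I13 had 29.8 CPM of PER2, against 25.9 to 26.5 CPM in the other controls. Control replicate 3 of I14 had the lowest NIPSNAP1, 52.98 CPM against 62.4 to 63.3 CPM, and the highest lonrf1, 41.3 CPM against 34.6 to 35.3 CPM. Control replicate 1 of I14 had a mean log2 CPM of proteasome subunits of 5.89, against 5.59 to 5.63. Groups of 3 were not examined.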

How the results depend on the processing

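The count of DEG for the low dose rate effect was 0 in the fit reported and became 1 with DESeq2, with no filter on low counts and in the fit over 39 libraries, and 55 with DESeq2 without control replicates 3 and 4 of I13, which was chosen after seeing the data. The count with an adjusted p under 0.05 was 3 with DESeq2, 1 with no filter, 1 in the fit over 39 libraries, 1 in the 0.05 mGy/h batch alone, 1 with limma-voom, 243 without those 2 controls and 961 without them with DESeq2. Without each library in turn it was 0 to 1, and the gene was PLOD1, called without exposed replicate 4 or control replicate 4 of I14. RLE size factors, a filter of 1 CPM in 3 libraries, unstranded counts, thinning to the lowest total, no batch covariate and no scaling factor, the last chosen after seeing the data, gave 0. With no scaling factor, 238 genes were higher and 842 lower at an unadjusted p under 0.05, against 420 and 433. The test of the difference between batches gave 0 genes in all 21 alternatives.

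Between exposed and control pools of the same replicate number, the correlation of deviations from the group means ran from -0.0881 to 0.175. Pools of different replicate number were not compared in this way, so whether the numbers pair the pools is not known. With the replicate block over 7 pairs, 0 genes had an adjusted p under 0.05 and 0 were DEG. At an unadjusted p under 0.05 it gave 1171 genes, against 853 in the fit reported.

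Against 0.5 mGy/h, 57 genes were DEG and 661 had an adjusted p under 0.05 without the libraries the study set aside, in place of 2 and 20, and 1 was a DEG with RLE size factors. Without each library in turn there were 1 to 16 DEG and 4 to 150 genes, with 150 and 16 without control replicate 3 of I13 and 4 and 1 without control replicate 2. Against 5 mGy/h there were 5 DEG without the set-aside libraries in place of 9. Without each library in turn there were 6 to 11 DEG and 10 to 48 genes, with 48 without control replicate 1 of I14. ITGB1 lost its call against 0.5 mGy/h in 3 of these fits.

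Of 84 genes followed over 30 alternatives, 15 of 2495 values changed sign. The 24 named genes were chosen for the same sign in both batches, so that their sign says nothing of stability. Vent was at 0.0387 in the 0.05 mGy/h batch alone and at 0.0036 with no batch covariate, and cdkn1a at 0.12 in the 0.05 mGy/h batch alone. The fold change of mdm2, near 0, was -0.0031 with no filter, -0.0874 and -0.0876 without control replicates 3 and 4 of I13 in edgeR and DESeq2, -0.0646 with the replicate block, -0.0154 over 39 libraries, -0.227 in the 0.005 mGy/h batch alone, -0.0718 with no scaling factor, and from -0.0875 to 0.0618 with 1 library left out. The causes were not tested. The median 95% interval of the effect reached 0.35 to either side on the log2 scale over all genes tested and 0.29 for genes of at least 1 CPM.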
